A study of Mus musculus with 12 samples.

Results

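The genes described here are those of the cholinergic locus, Chat and Slc18a3, and the muscarinic acetylcholine receptors, Chrm1, Chrm2, Chrm3, Chrm4 and Chrm5. They were chosen by gene name from the gene models deposited with RNA-seq of mouse nucleus accumbens (NAc), a brain reward region. Of the 7 genes, 6 were found, with 8 transcripts in all, among 35912 gene names and 87740 transcripts. All 8 carry Ensembl identifiers and had the same exons as the transcripts of those identifiers in a reference annotation, GENCODE M1. The structures described are therefore those of the annotation, and their presence does not show that a transcript is expressed or a start used in the NAc. No transcript of the models analysed here bears the name Slc18a3. The study sequenced poly-A RNA from 12 pools of NAc of C57BL/6 mice (males of the C57BL/6J substrain in the study's methods), 3 pools in each of 4 groups. Repeated cocaine was 20 mg/kg by intraperitoneal injection daily for 7 days, with its own group given saline for 7 days. Acute cocaine was 6 days of saline and then 1 day of cocaine at 20 mg/kg, again with its own group given saline for 7 days. By the sample labels the mice were 8 to 10 weeks old and each pool held 3 to 5 animals. The study's own text gives 8 weeks and 5 animals per pool. The NAc was taken 24 h after the last injection, and because tissue was pooled no value belongs to 1 animal. The deposited models hold exon positions and identifiers, no value per pool and nothing that names the pools behind them. No level of any of these genes could therefore be given for any group, no cocaine group could be compared with its saline group, and the tissue could not be checked against its markers.

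Acetylcholine is made by choline acetyltransferase, the enzyme that Chat encodes, and is packed into synaptic vesicles by the vesicular acetylcholine transporter, which Slc18a3 encodes. In the NAc the transmitter comes mainly from local cholinergic interneurons. Muscarinic receptors are G protein-coupled receptors. The M1, M3 and M5 receptors couple mainly to Gq and the M2 and M4 receptors mainly to Gi/o. M1 and M4 are the main muscarinic receptors of striatal projection neurons, M2 and M4 act as autoreceptors on cholinergic neurons, and M5 is known from midbrain dopamine neurons.

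The sequences that carry the structure of these genes are shown first. The stretch of Chat intron 1 between the start of Slc18a3 and the start of an opposite-strand long intergenic noncoding RNA (lincRNA), AC154412.2, is given because transcription in both directions is annotated to leave it. It lay at chr14:33278037-33278227 on mm9 (NCBIM37), held 191 bases and is printed on the minus strand, in the direction of Slc18a3.

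Start-to-start stretch: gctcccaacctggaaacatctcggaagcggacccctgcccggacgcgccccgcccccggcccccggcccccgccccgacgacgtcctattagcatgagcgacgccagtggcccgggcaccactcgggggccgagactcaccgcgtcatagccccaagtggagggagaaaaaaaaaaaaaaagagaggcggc

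The starts of the muscarinic coding exons are given because they are splice junctions in some genes and modelled transcript starts in others. Chrm3 and Chrm5, modelled as 1 exon, have no junction there. Each line holds 20 bases before the modelled exon and its first 10 bases, and capitals mark the last 2 bases before the exon, which are AG at a usual splice acceptor.
Chrm1 (chr19:8752332-8752361, plus strand): ctcgtgtcctttcttttcAGgtgatgccct
Chrm2 (chr6:36473150-36473179, plus strand): ttcattctatttccctgcAGgtttaaatgt
Chrm4 (chr2:91767354-91767383, plus strand): ctgtctccttcctcctccAGccactgccca
Chrm3 (chr13:9878320-9878349, minus strand): aagaatatatatatatgaAAaaatgtaagc
Chrm5 (chr2:112320965-112320994, minus strand): gaggtagctccaaacagaGAgtagcgccaa
Chrm1, Chrm2 and Chrm4 had AG in front of the coding exon. The bases in front of the Chrm3 and Chrm5 models were AA and GA. Because the models place no acceptor there, these bases do not show whether the genes have exons further upstream.

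The longest stretch of residues that all 5 receptors share is shown by its coding bases, 30 in each gene, because it shows how much the genes differ where the proteins do not. Capitals mark the base positions that are not the same in all 5 genes.
Chrm1 (chr19:8752618-8752647, plus strand): agcCtggcCtgTgcTgaTctCatcatTggC
Chrm2 (chr6:36473399-36473428, plus strand): agcCtggcCtgTgcTgaCctCatcatAggT
Chrm3 (chr13:9877894-9877923, minus strand): agcCtggcCtgCgcAgaTctGatcatCggG
Chrm4 (chr2:91767619-91767648, plus strand): agcCtggcGtgTgcAgaTctCatcatAggG
Chrm5 (chr2:112320687-112320716, minus strand): agcTtggcCtgTgcAgaCctCatcatTggC
The 10 codons encode the same 10 residues in every receptor, yet only 2 codons were written alike in all 5 genes. Of the 8 base positions that differed, 7 were at the third position of a codon.

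Chat was modelled as 1 transcript of 16 exons in 1 transcription start site (TSS) group, on the minus strand at chr14:33221389-33279095. It spanned 57707 bases, of which 2810 were exon, or 4.87% of the span. Exons ranged from 54 to 824 bases, and the longest was the last. The 15 introns ranged from 135 to 20498 bases with a median of 2013, and intron 8 was the longest. The start codon lay in exon 3, at position 33271859, so exon 1 (103 bases) and exon 2 (189 bases) were noncoding. Together with the first 38 bases of exon 3 they made a 5′ UTR of 330 bases. The coding part held 645 codons over 14 exons, and the 3′ UTR held 542 bases. Rodent Chat is known for alternative noncoding first exons. Only 1 first exon was in the models, so promoter use of Chat could not be compared from them.

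Slc18a3 is known to lie inside the first intron of Chat, an arrangement called the cholinergic gene locus. Chat intron 1 lay at chr14:33274100-33278992 and was 4893 bases long, shorter only than introns 8 and 14. The start of Slc18a3 in RefSeq (GRCm38.p6) was placed on mm9 by the sequence around it, a window of 300 bases that matched chromosome 14 exactly once. It fell at position 33278036, inside this intron and on the strand of Chat, 1059 bases downstream of the Chat start and 956 bases from the first base of the intron. The longest open reading frame of the intron on either strand began 426 bases further on, at 33277610, and ended at 33276018. It held 530 codons without an intron, against 178 codons for the next longest frame. The end of the frame lay 1918 bases before Chat exon 2. The search was confined to this intron, so the frame could share no base with an exon of the 1 Chat transcript.

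The protein read from that frame was compared with the vesicular monoamine transporters, which belong to the same transporter family and load dopamine, serotonin and other monoamines into vesicles. It was identical to the product of Slc18a1 at 200 of 494 aligned residue pairs (40.5%) and to that of Slc18a2 at 191 of 491 (38.9%). Slc18a1 and Slc18a2 were identical to each other at 66.7% of aligned pairs. The coding sequences of Slc18a1 and Slc18a2 were each split over 15 exons in the transcript with the most, whereas the frame in Chat intron 1 was uninterrupted. Because no transcript is modelled at the frame, reads from it had no Slc18a3 transcript to be assigned to in these models.

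**Figure D1:**
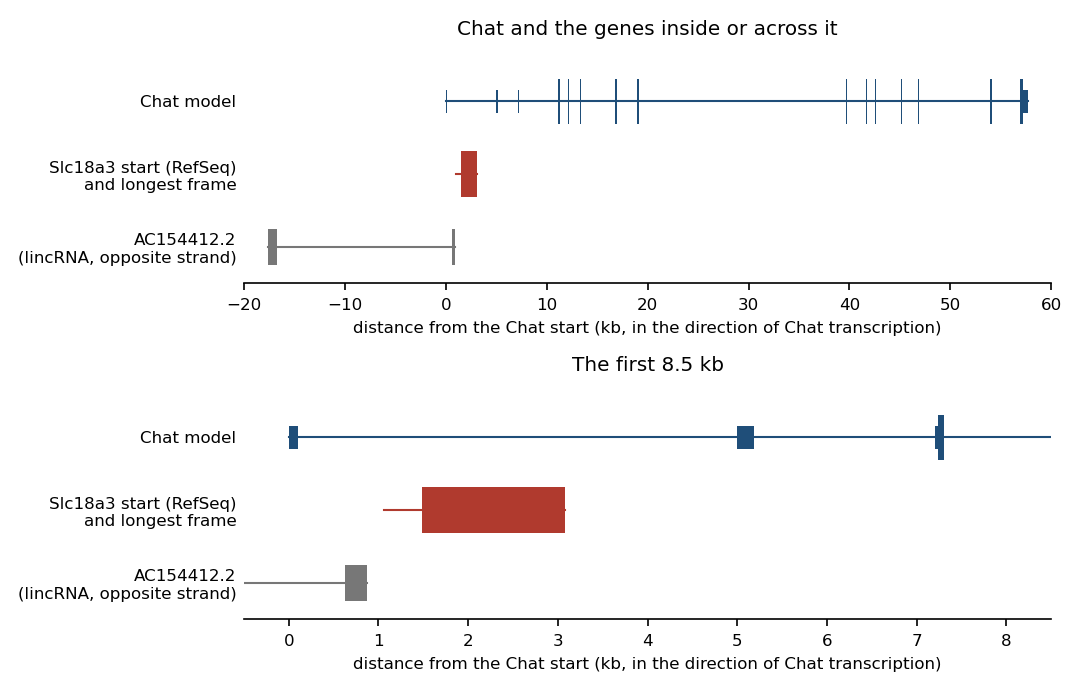
Map of the Chat locus by distance from the Chat start in kb, over the whole gene (top) and its 5′ part (bottom); boxes are exons or the open reading frame, tall boxes of Chat are coding and thin lines join exons or, for Slc18a3, the RefSeq start to the frame. The frame of 530 codons sits between noncoding exons 1 and 2 of Chat, and the lincRNA AC154412.2 starts in the same intron and runs the other way.

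Single-exon coding genes in the first intron of a coding gene on the same strand were few in the models. Of 22514 coding genes, 158 (0.702%) lay within an intron of another coding gene on the same strand, 39 of these had 1 exon in every transcript, and 20 of those were in a first intron. Since no transcript is named Slc18a3, it is not among them. The 5 that lay nearest to the first base of the host's intron were Galnt4 in Poc1b (282 bases), Gm10006 in Rgs6 (641 bases), Hus1b in Exoc2 (2420 bases), Rbm15b in Manf (3160 bases) and Chml in Opn3 (3816 bases). At 956 bases, the RefSeq start of Slc18a3 would stand between Gm10006 and Hus1b.

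The lincRNA AC154412.2 ran against Chat on the plus strand, at chr14:33278228-33296725, in 2 exons. Its first exon of 242 bases lay wholly within Chat intron 1, 523 bases from Chat exon 1, and its second exon of 867 bases lay 16764 bases upstream of the Chat start. It shared no exon base with Chat. Its start was 867 bases inside Chat and 192 bases upstream of the Slc18a3 start, with the sequence printed above between the starts of Slc18a3 and the lincRNA. Opposite-strand lincRNA starts within 2000 bases of a modelled start were found for 666 coding genes, or 2.96%. Among the 6 genes found they were present at Chat and Chrm2 and absent at Chrm1, Chrm3, Chrm4 and Chrm5. For Chrm3 this depended on the start used. Its RefSeq start lay 481720 bases upstream of the modelled one, and the opposite-strand lincRNA Gm16950 began 1324 bases from it. The library kit does not mark the strand of origin, so reads of overlapping genes on opposite strands cannot be told apart by strand.

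Chrm1, the receptor that couples to Gq and is abundant in forebrain, lay on the plus strand at chr19:8738495-8758077 and spanned 19583 bases. Both of its transcripts were coding, shared a first exon of 453 bases and belonged to 1 TSS group. They differed by 1 optional exon of 92 bases, at chr19:8739399-8739490, which is noncoding and is printed here at its edges because it is the only alternative splicing event within a TSS group of these genes. Capitals mark the AG before the exon and the GT after it.
Chrm1 exon 2, acceptor (chr19:8739379-8739408): ctccttctctcctccttcAGgaaaccctga
Chrm1 exon 2, donor (chr19:8739481-8739500): ggatgccaagGTgggtgttg
With this exon the 5′ UTR was 616 bases, and without it 524 bases. The protein of 460 codons was encoded in the last exon alone in both transcripts, so the choice of exon left it unchanged. That exon was 5726 bases long and carried a 3′ UTR of 4272 bases. Of 39028 coding transcripts with a start and a stop codon, 2.53% had a 3′ UTR as long, and the median was 590 bases. A noncoding RNA gene on the opposite strand, 7SK.87, lay wholly within this exon at chr19:8756325-8756653 and shared 329 bases with it.

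Chrm2, which encodes the M2 autoreceptor, was the widest of the genes at 140331 bases, on the plus strand at chr6:36338084-36478414. It was the only one with more than 1 TSS group. Its transcripts started 111 bases apart, at 36338084 and 36338195, but their first exons of 283 and 172 bases ended at the same donor and both were followed by the same second exon of 148 bases. The transcript from the upstream start was coding, with 466 codons in its exon 3 and a 3′ UTR of 3804 bases (3.61% of transcripts had one as long). Its intron 2 was 134418 bases, the longest of the 22 distinct introns of these genes. The transcript from the downstream start has no protein identifier and ended in an exon of 377 bases at chr6:36394121-36394497, within intron 2 of the coding transcript. The TSS groups of Chrm2 differed also in their last exon, and a shift between them would be a shift between a coding and a noncoding transcript.

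Around the start of Chrm2 lay the lincRNA 9330158H04Rik on the minus strand. Of its 8 transcripts, 7 began within Chrm2, from 8 to 2107 bases past the Chrm2 start, and the other began 233 bases upstream of it. Its exons shared 142 bases with those of Chrm2. The microRNA gene Mir490 lay on the Chrm2 strand within intron 2, at chr6:36371742-36371825. It was 32990 bases from the first base of the intron, 22295 bases before the last exon of the noncoding transcript and 101344 bases before the coding exon. Its mature sequences in RefSeq matched mm9 within these 84 bases and are printed because they are the small RNAs whose gene lies inside Chrm2, with the seed, bases 2 to 8, in capitals.
mmu-miR-490-5p: cCAUGGAUcuccaggugggu
mmu-miR-490-3p: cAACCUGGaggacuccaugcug
The mature forms lay at chr6:36371763-36371782 and chr6:36371800-36371821, and their seeds differed. Poly-A selection does not retain mature microRNAs, so these libraries do not measure them.

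Chrm3, which encodes a Gq-coupled receptor, was modelled as a single exon of 1949 bases on the minus strand at chr13:9876381-9878329, with no TSS group. It held 589 codons, the most of the 5 receptors, between a 5′ UTR of 85 bases and a 3′ UTR of 94 bases. The RefSeq start of Chrm3 matched mm9 exactly once, at chromosome 13 position 10360049, which is 481720 bases upstream of the modelled start. No gene other than the lincRNA Gm16950 was modelled in between. Gm16950, with 6 exons on the plus strand at chr13:10358725-10658139, began 1324 bases downstream of that RefSeq start, on the opposite strand. The modelled start of Chrm3 thus sat close to the coding sequence and far from the RefSeq start.

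Chrm4, which encodes the Gi/o-coupled receptor of striatal projection neurons, had 1 transcript of 2 exons in 1 TSS group, on the plus strand at chr2:91762346-91769986. Its first exon of 155 bases was noncoding, its intron was 4873 bases, and 479 codons lay in the second exon of 2613 bases. The 3′ UTR was 1141 bases. The last 25 bases overlapped the end of Mdk, the gene of the growth factor midkine, which runs toward Chrm4 on the minus strand. The overlap is printed on the plus strand because it holds the poly-A signals of both models. The first capitals mark ATTAAA, the signal on the Chrm4 strand, and the second mark TTTATT, which reads AATAAA on the Mdk strand.
Chrm4 and Mdk overlap (chr2:91769962-91769986): atATTAAAaaagaagctTTTATTgg

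Chrm5, which encodes the receptor known from dopamine neurons, was modelled like Chrm3. It was a single exon of 1746 bases on the minus strand at chr2:112319229-112320974, with no TSS group, 532 codons, a 5′ UTR of 48 bases and a 3′ UTR of 99 bases. The RefSeq start of Chrm5 fell on the modelled start. The same was true of Chat, Chrm2 and Chrm4, so that Chrm3 was the exception among the 5 modelled genes compared. Coding sequence made up 91.4% of the Chrm5 model and 90.7% of the Chrm3 model, against 51.9% for Chrm4, 24.6% for the coding transcript of Chrm2 and 22.3% for the shorter transcript of Chrm1.

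**Figure D2:**
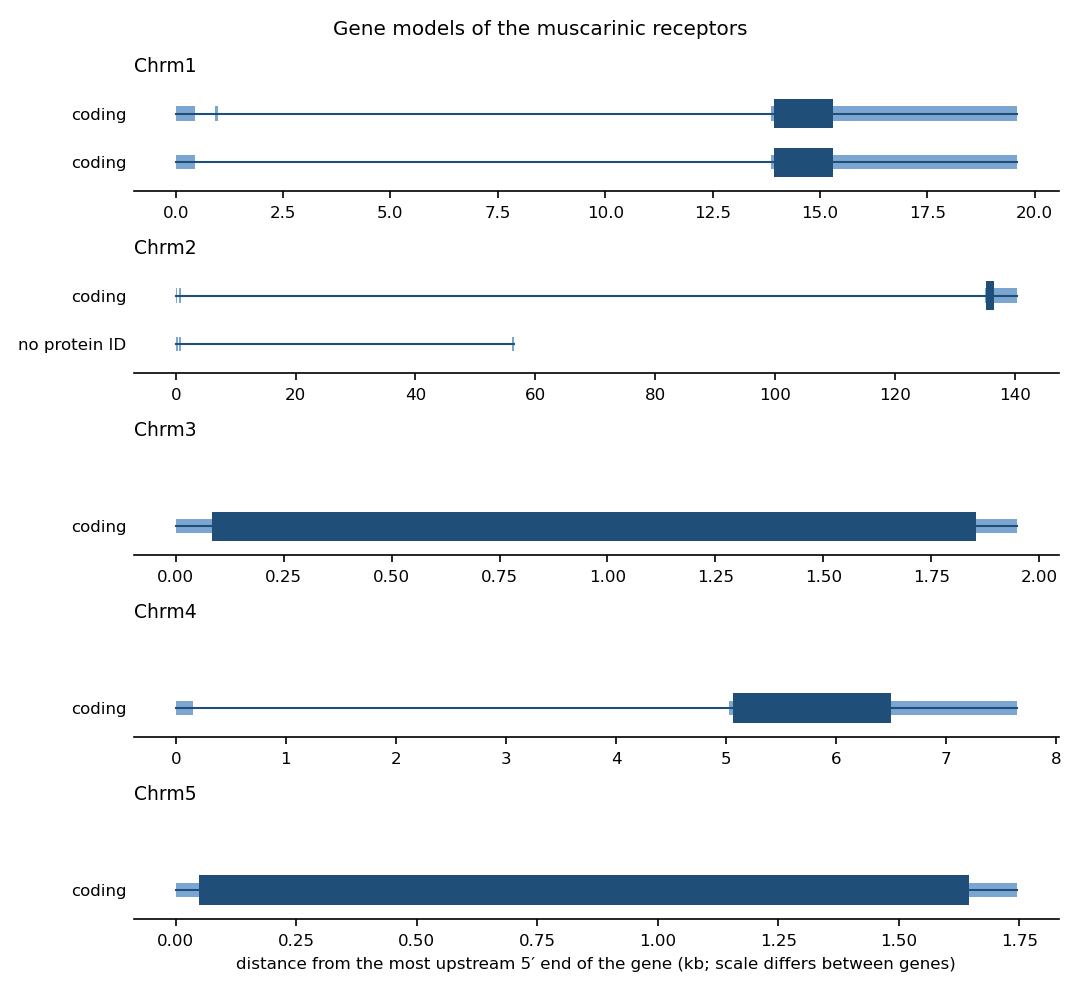
Transcript models of Chrm1 to Chrm5 by distance from the most upstream 5′ end of each gene in kb, each gene on its own scale; thin boxes are noncoding exon sequence, tall boxes coding sequence and lines introns (very short exons are widened to stay visible). Coding sequence sits in 1 exon in every gene, Chrm1 and Chrm2 have 2 transcripts, and Chrm3 and Chrm5 consist of 1 exon.

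The 3′ ends of the models were searched for the poly-A signals AATAAA and ATTAAA in their last 50 bases, on the strand of the gene. Of 44088 distinct 3′ ends of coding transcripts, 49.7% held at least 1 of the 2. AATAAA was present at the end of the coding Chrm2 transcript and ATTAAA at that of Chrm4. Neither was present at the ends of Chat, Chrm1, Chrm3, Chrm5 or the noncoding Chrm2 transcript. A 3′ UTR as short as those of Chrm3 and Chrm5 was held by 15.8% and 16.3% of coding transcripts.

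The 300 bases around each start, 250 before and 50 after, were compared with those of 45492 distinct starts of coding transcripts. The CpG ratio, the number of CG pairs over that expected from the C and G content of the window, had a median of 0.558 over all starts. It was 0.807 at Chrm4, 0.804 at the RefSeq start of Slc18a3 and 0.769 at the upstream start of Chrm2, all above the median. It was 0.436 at Chat and 0.368 at Chrm1, below the median. At the modelled start of Chrm3 it was 0.182 and at Chrm5 0.265, and 81.2% and 72.3% of coding starts had a ratio as high as these. The RefSeq start of Chrm3 had a ratio of 0.458. G and C made up 39.0% of the windows of the modelled Chrm3 and Chrm5 starts, against a median of 56.3% and against 70.7% at Chrm4, the highest of these genes. The motif TATAAA, searched on both strands, was in 11.3% of all windows and in 0 of these 8.

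The proteins of the receptors fell into the coupling classes by identity. M1, M3 and M5 were 57.3% to 60.6% identical to one another over aligned residue pairs, and M2 and M4 were 61.4% identical. The 6 pairs with 1 receptor of each class were 47.9% to 53.8% identical, so the ranges within and between the classes did not overlap. The highest value between classes was that of Chrm4 and Chrm5. In an alignment of all 5 proteins, 159 of 636 columns held the same residue in every receptor, equal to 34.6% of the shortest protein. They were unevenly placed. The longest stretch between shared columns that held no more than 2 of them, a limit set in the search, was 258 columns. It had 108 shared columns before it and 49 after it. The stretch was picked from the same alignment, and a column with a gap in any receptor could not count as shared. This stretch covered 129 residues in Chrm1, 154 in Chrm2, 159 in Chrm4, 201 in Chrm5 and 212 in Chrm3. Outside it the proteins ranged from 312 to 377 residues. The long intracellular loop of muscarinic receptors is known to be the part in which they are least alike.

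**Figure D3:**
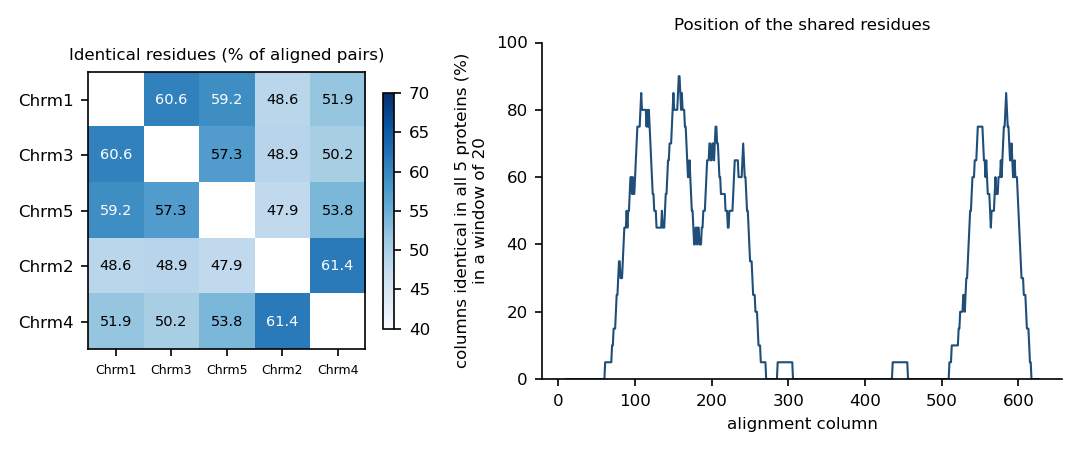
Left, identical residues as a percent of aligned pairs for each pair of muscarinic receptors, with Chrm1, Chrm3 and Chrm5 placed before Chrm2 and Chrm4; right, the percent of alignment columns identical in all 5 proteins in windows of 20 columns along the alignment. Pairs within a class reach 57.3% or more and pairs between classes at most 53.8%. Shared columns lie on both sides of a long stretch, which was searched for as the longest with at most 2 of them.

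Every muscarinic coding sequence was undivided, and no muscarinic gene had more than 2 transcripts in the deposited models (Chrm2 had 3 in GENCODE M1). Coding sequence lay in 1 exon in 5 of 5 muscarinic genes, in 12 of 30 other aminergic receptor genes (dopamine, adrenergic, serotonin and histamine), in 0 of 16 nicotinic receptor genes and in 0 of 13 other genes of the cholinergic pathway. Of these single-exon coding sequences, 3 of the 5 muscarinic and 4 of the 12 aminergic ones had additional noncoding exons. The 2 muscarinic genes with 2 or more transcripts, Chrm1 and Chrm2, compared with 11 of 30 aminergic, 11 of 16 nicotinic and 8 of 13 pathway genes, and with 57.0% of all coding genes. Of all coding genes, 43.7% had 2 or more TSS groups, as only Chrm2 did among the genes described here, and 12.8% had none, as Chrm3 and Chrm5 did.

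The highest counts in the lists were 8 transcripts each for Ache, which encodes the enzyme that breaks down acetylcholine, and Slc44a1, a choline transporter, among the pathway genes. Among the nicotinic genes the highest was Chrna9 with 7 transcripts, and among the aminergic receptors Htr2c and Hrh3 with 8 each. The lowest count was 1 transcript in each of these lists, held for example by Isl1 and Gbx2, transcription factors of the pathway list, by the nicotinic genes Chrna1 and Chrnb2 and by the dopamine receptor gene Drd1a. Of the vesicular monoamine transporters, Slc18a1 had 5 transcripts and Slc18a2 had 2. Slc5a7, the high-affinity choline transporter that supplies the Chat reaction, had 1 transcript, as Chat did. The median number of transcripts was 1 for the muscarinic genes, 4 for the pathway genes, 2 for the nicotinic genes and 1 for the aminergic receptors, beside 2 for all coding genes. Spans ranged from 1746 to 140331 bases for the muscarinic genes, 3193 to 182066 for the pathway genes, 4334 to 113878 for the nicotinic genes and 1273 to 234765 for the aminergic receptors. The lists were chosen by function, and these counts are descriptions of the annotation, with no test.

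**Figure D4:**
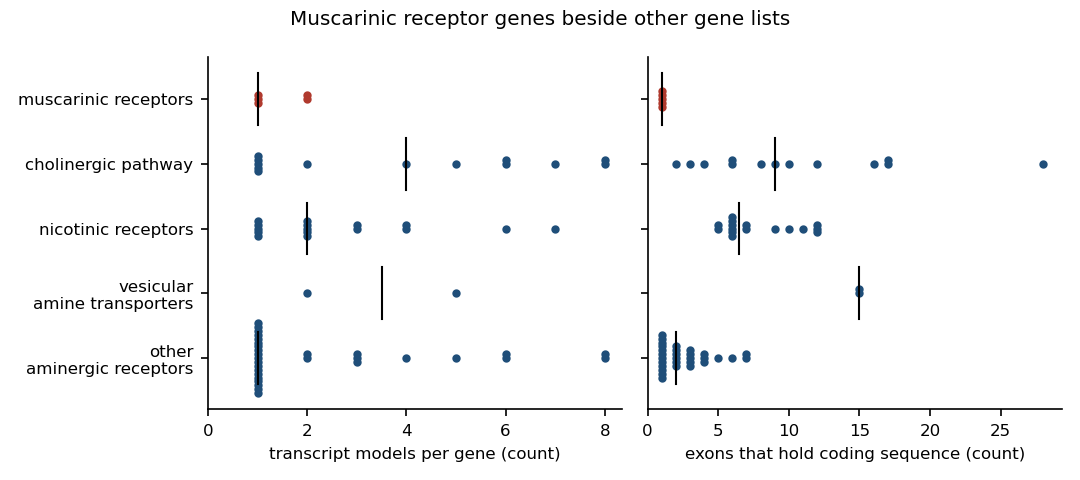
Each point is 1 gene of the muscarinic receptors (red) or of 4 comparison lists (blue); the left panel gives the number of transcript models and the right panel the largest number of exons holding coding sequence in a transcript, and black lines are medians. The muscarinic genes have 1 or 2 transcripts and 1 coding exon each, while nicotinic genes have 5 to 12 coding exons.

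The models limit which transcript comparisons could be made with them for these genes. A change of splicing within a TSS group needs at least 2 transcripts in that group, which 43.5% of coding genes had, and was possible for Chrm1 alone. A change of promoter use needs at least 2 TSS groups and was possible for Chrm2 alone. Chat, Chrm3, Chrm4 and Chrm5, with 1 transcript each, allowed a comparison of the level of that model only. The Chrm3 and Chrm5 models held little beyond coding sequence (90.7% and 91.4% of their bases). All 22 distinct introns of these genes began with GT and ended with AG.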

How the data were processed

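RNA-seq of 12 NAc pools was made with an unstranded poly-A kit. Per the labels the authors used CASAVA, TopHat, Cufflinks and Cuffdiff on mm9, with versions not given in the sources used here. As annotation, Ensembl 62 of NCBIM37 is named in the study's methods. The authors deposited exon positions of 1 set of transcript models, with no column per pool and with locus, TSS group and protein identifiers. These carry no counts or expression values, so depth and the spread between pools were not examined here and no test was run.

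Transcripts were counted by gene name, and a transcript with a protein identifier was taken as coding. Start and stop codons came from GENCODE M1 transcripts of the same build with the same Ensembl identifiers. Bases were read from NCBIM37. RefSeq windows and microRNAs (GRCm38.p6) were placed by exact match. The search for nested genes and first introns passed its checks on simulated models. Merging of 5′ ends and reverse complement passed on short made-up inputs, which made 4 of 4 checks. Counts of transcripts, TSS groups and exons were not among these checks. Proteins were translated and aligned in pairs with Biopython 1.88 (BLOSUM62, end gaps free) and together with MAFFT 7.526. Overlapping genes, the nearest nested genes and list extremes were named by rule. Members and lists were chosen with earlier results of these data known. Alternatives are given below.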

Additional observations from a re-analysis of the deposited data

How the results depend on the processing

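No value per pool was available, so what is varied here is how models were counted. No paired analysis was possible because the models hold no value per pool. Of 91 alternative values for 54 results, 73 stayed within 1.5 times the reported count or within its 95% binomial interval, and 18 moved. Some of the 73 could not have moved. Among these were counts by shared donor or intron chain for genes with 1 transcript. The share of genes with as many or more transcripts was likewise fixed for genes with 1. The 73 are therefore not a measure of robustness.

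Counting coding transcripts only left Chrm2 with 1 transcript, and counting first exons by shared donor left it with 1 first exon. Chrm3 and Chrm5 had 1 start each, in place of no TSS group, when 5′ ends were counted, merged within 100 bases or taken from GENCODE M1. GENCODE M1, chosen after seeing the data, gave 2 transcripts for Chat, 2 transcripts and 2 starts for Chrm4, and 3 transcripts and 3 starts for Chrm2 against 2 and 2. The additional Chat transcript had an intron of 2 bases, and those of Chrm2 and Chrm4 were 1 exon inside a modelled exon. With all genes in place of coding genes, 2084 nested genes were found, 38.3% of genes had 2 or more transcripts (Chrm1 and Chrm2), 67.5% had at least 1 TSS group (Chat, Chrm1 and Chrm4) and 28.9% had 2 or more (Chrm2).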
